A study of Mus musculus with 11 samples.

Results

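The midbrain-hindbrain boundary patterning genes Otx1, Otx2, Gbx2, Pax2, Pax5, Pax8, Fgf8 and Fgf17 were examined for open chromatin in sorted dopaminergic (DA) and serotonergic (5-HT) neurons of the mouse embryo. All 8 genes were found in the mm9 annotation, of 22238 protein-coding genes in all. Each gene body was extended by 50 kb on both sides, and every listed region that overlapped this window by at least 1 bp was taken as a row of that gene. This gave 104 rows, and no row fell in 2 windows. The series lists 17884 promoter and 114058 distal rows in all. A promoter row reached into the stretch from 1 kb upstream to 100 bp downstream of an annotated transcription start site (TSS), and the remaining rows were called distal.

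The boundary, or isthmic organizer, is the signalling centre between the midbrain, where DA neurons arise, and the anterior hindbrain, where 5-HT neurons arise. Otx2 and its paralog Otx1, homeodomain factors of the forebrain and midbrain, and Gbx2, a homeodomain factor of the anterior hindbrain, repress one another and set the position of the boundary. Fgf8 is the ligand that carries the organizer activity and Fgf17 is a related ligand expressed around it, while the paired-domain factors Pax2, Pax5 and Pax8 act in the regulatory network that maintains the organizer.

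Open chromatin was profiled with ATAC-seq, in which a transposase cuts accessible DNA, in 3 DA and 2 5-HT libraries from E14.5 embryos. DA neurons were GFP+ cells sorted from ventral mesencephalons of TH-GFP embryos, a line kept on C57BL/6J in which the Th promoter drives GFP. 5-HT neurons were YFP+ cells sorted from rhombomeres 1 to 3 of Mash1-CRE x ROSA YFP embryos, in which Cre recombinase switches on a YFP reporter in cells that expressed Mash1 and in their descendants. In both cases transgenic males had been crossed to Swiss wild-type females, and the tissue of several embryos was pooled for each sort. Each group is therefore a sorted mixture defined by its reporter and its dissected tissue, and genotype, tissue and reporter cannot be told apart. The libraries of a group came from separate sorts.

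The value of a row in a library is the deposited score, 0 where no peak was called; its scale is not named, so scores were ranked within each library. The percentile of a row is its place among the peaks of that library, with 100 for the highest score and 0 for no peak. DA 1, DA 2 and DA 3 had 52861, 93055 and 94351 peaks, and 5-HT 1 and 5-HT 2 had 38772 and 22879. Read depth is unknown, and fewer sorted cells had entered the 5-HT reactions. Scores were also ranked from the highest, 1 being the strongest peak of a library, with ranks past 22879 and missing peaks set to one place below it when groups were compared. Because the DA libraries held more peaks, presence was also read at an equal peak number, keeping the 22879 highest scores of each library (22878 in DA 3 because of a tie). Rows with a peak in all 3 DA libraries and no 5-HT library are called DA-only, those with the reverse 5-HT-only, and those with a peak in all 5 libraries common. An exact permutation test of 3 against 2 libraries cannot go below p = 0.1, so no single gene could pass a threshold of 0.05.

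The sorted populations were first compared with the promoters of marker genes. The promoter row of Th, which encodes the rate-limiting enzyme of dopamine synthesis, had scores of 9.91, 10.6 and 8.45 in DA 1, DA 2 and DA 3 and no peak in either 5-HT library, also at an equal peak number. All 9 DA marker promoters (Th, Slc6a3, Slc18a2, Ddc, Nr4a2, Lmx1a, Pitx3, Foxa2 and En1) had percentiles higher in every DA library than in either 5-HT library, against 53.2% of 14499 protein-coding promoters with a row. By rank 2 of the 9 (Th and Pitx3) were nearer the top in every DA library, against 11.3% of promoters, and the groups overlapped at the other 7. None of 7 5-HT marker promoters (Tph2, Slc6a4, Fev, Gata2, Gata3, Lmx1b and Nkx2-2) had higher percentiles in both 5-HT libraries than in every DA library, a pattern shown by 0.552% of promoters, so that a count of 0 in so short a list is no departure from the series; by rank 1 (Gata3) was nearer the top in both 5-HT libraries, against 14.5%. The promoter of Tph2, the enzyme that starts serotonin synthesis in neurons, was at percentiles 90.5, 80.9 and 95.2 in the DA libraries and 87.5 and 46.0 in 5-HT 1 and 5-HT 2. That of Slc6a4, the serotonin transporter, was DA-only with all peaks and not at an equal peak number, and Lmx1b was at 63.0, 81.0 and 76.1 in DA against 49.0 and 0 in 5-HT. The others leaned the opposite way by their means. Gata3 stood at 73.6, 51.5 and 61.7 in DA and 65.1 and 95.5 in 5-HT, Gata2 at 0, 4.20 and 0 against 41.7 and 0, and Nkx2-2 at 6.35, 34.6 and 40.6 against 66.4 and 0. Fev, a determinant of 5-HT identity, had a promoter peak in 5-HT 1 alone. The 5-HT markers thus did not point to one group by their promoters. In the paper Lmx1b is also listed as a marker of DA progenitors. By immunofluorescence the paper found the YFP+ sort enriched in Tph2+ cells. Its RNA-seq of the same sort also showed genes of DA and GABAergic neurons at high levels. For the GFP+ sort the paper proposes a slight contamination with GABAergic neurons. Markers of other cells were also read: the 5 radial glia and progenitor promoters (Fabp7, Nes, Vim, Sox2 and Hes5) were open in all 5 libraries, as were Gad1 and Gad2 of GABAergic neurons and 48.4% of protein-coding genes, so that an open promoter alone says little about such cells, whereas Slc32a1, also GABAergic, was DA-only. These calls changed at an equal peak number. Gad1, Gad2, Nes and Sox2 were then 5-HT-only, against 2.29% of protein-coding genes, in a reading where 5-HT 2 keeps all its peaks. By percentile the groups overlapped at each of these promoters. Mean percentiles were 49.1 in DA and 39.0 in 5-HT at Gad1, 55.8 and 49.6 at Gad2, 44.4 and 29.2 at Nes, and 57.5 and 64.2 at Sox2. At an equal peak number Vim remained common, against 38%, Fabp7 and Hes5 were no longer common, and Slc32a1 was no longer DA-only. The glutamatergic marker Slc17a6 had percentiles of 90.7, 95.4 and 97.1 in DA against 20.2 and 0 in 5-HT. At an equal peak number Slc17a6 was DA-only, beside 0.934% of all promoter rows. Slc17a7 had no promoter row. Of the noradrenergic markers, Dbh had no promoter row, and Phox2a had a promoter peak in DA 3 alone. The microglial markers Aif1 and Csf1r and the endothelial markers Pecam1 and Cdh5 had no promoter row; Cldn5, also endothelial, had one in all DA libraries and 5-HT 1. The pericyte markers Pdgfrb and Rgs5 had promoter peaks in 2 and 1 DA libraries. Hoxa2 and Hoxb2, markers of hindbrain position, had none, and Egr2 had one in all 5 libraries. The part of such cells in the values that follow was not tested.

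Over the 104 rows, a peak was present in 45, 92 and 62 rows in DA 1, DA 2 and DA 3 and in 39 and 21 rows in 5-HT 1 and 5-HT 2. These were 43.3%, 88.5% and 59.6% of the rows in DA and 37.5% and 20.2% in 5-HT. Over all rows of the series the shares were 40.1%, 70.5% and 71.5% in DA and 29.4% and 17.3% in 5-HT. Own promoter rows numbered 9 and promoter rows of other genes 11, which left 84 distal rows. Distal rows of the boundary genes had a peak in 36.9%, 88.1% and 54.8% of cases in DA 1, DA 2 and DA 3, beside 33.7%, 66.9% and 68.8% of 114058 distal rows in the series. In 5-HT 1 and 5-HT 2 the shares were 32.1% and 16.7%, beside 22.0% and 10.4%. The median percentile of distal peaks was 32.2, 36.6 and 45.8 in the DA libraries and 33.3 and 24.9 in the 5-HT libraries, against 41.5, 43.8, 43.7, 39.0 and 36.8 over all distal peaks of the same libraries. Distal peaks around these genes thus had a lower median percentile than distal peaks of the series in 4 of 5 libraries, DA 3 being the exception; over all rows it was lower in DA 3 as well, at 47.6.

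Of the 84 distal rows, 10 (11.9%) were DA-only, beside 14.6% of all distal rows, 0 were 5-HT-only, beside 0.434%, and 8 were common, beside 5.55%. Among the 27 distal rows open in all 3 DA libraries, 10 (37.0%) had no peak in 5-HT, against 52.5% of 31663 such rows in the series. At an equal peak number 1 distal row was DA-only, beside 2.33% of all, and 3 were 5-HT-only, beside 1.51%. The DA-only rows were found at Otx2 (3), Pax5 (2), Pax8 (2), Gbx2 (1), Pax2 (1) and Fgf17 (1), and 9 of the 10 were no longer DA-only once the libraries were read at the same peak number. The counts also rested on single libraries. In the windows 19 distal rows were DA-only without DA 1 and also without 5-HT 1, and 17 were common without 5-HT 2. The 5-HT-only rows numbered 1, 2 and 3 without DA 2, DA 3 and 5-HT 2. Shares over the series were not counted at these settings, so whether the series moved alike was not tested. Of the 20 promoter rows in the windows, 2 were DA-only, beside 5.51% of all promoter rows, and 0 were 5-HT-only, beside 0.101%; at an equal peak number 0 were DA-only, beside 0.934%, and 1 was 5-HT-only, beside 3.55%. Among the 14 promoter rows open in all 3 DA libraries, 2 (14.3%) had no peak in 5-HT, against 7.03% of 14009 in the series. Shares of so few rows, on either side of those of the series, do not set these windows apart.

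**Figure D1:**
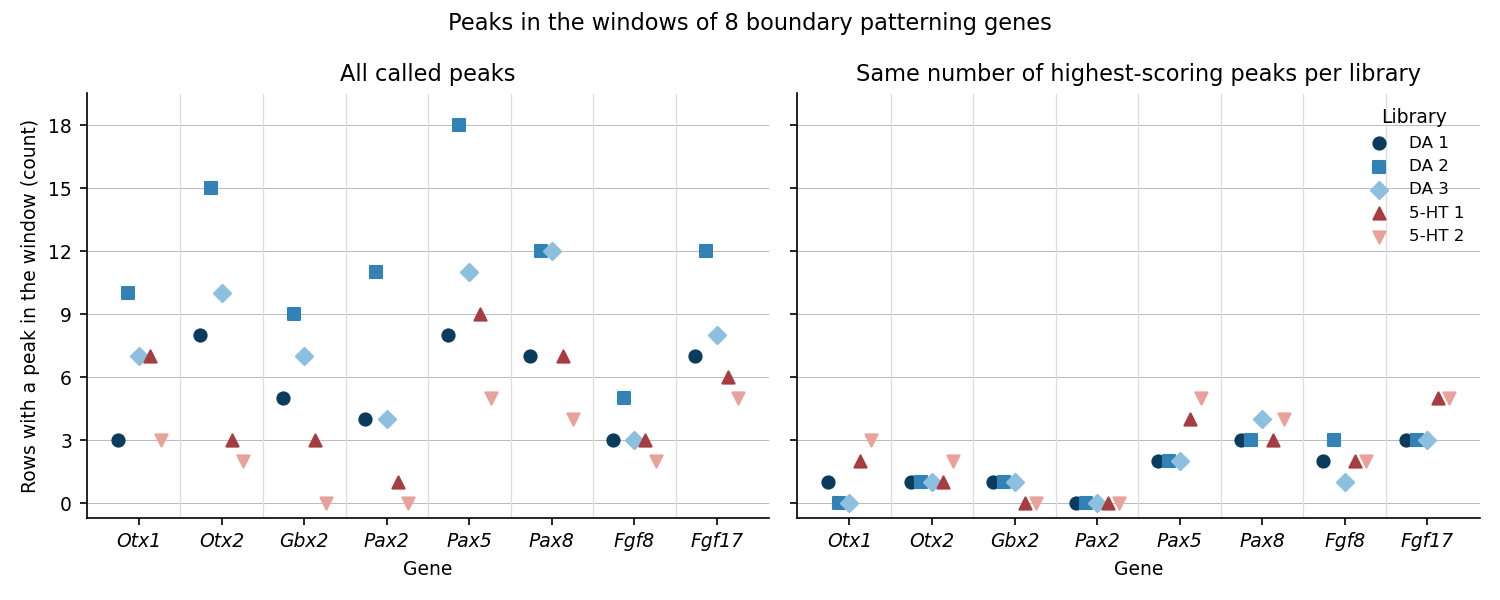
Number of rows with a peak (y axis, count) in the window of each gene (x axis), 1 marker per library, for all called peaks (left) and for the same number of highest-scoring peaks in each library (right). With all peaks DA 2 is highest or tied for highest at every gene, up to 18 rows at Pax5; at an equal peak number the DA libraries lie above both 5-HT libraries at Gbx2 alone and below them at Otx1, Pax5 and Fgf17.

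Counted by gene and with all peaks, the 3 DA libraries had more rows with a peak than either 5-HT library at 4 of 8 genes (Otx2, Gbx2, Pax2 and Fgf17), beside 47.4% of 21125 protein-coding genes with a row in their window. At an equal peak number the DA libraries were all higher at 1 gene (Gbx2), beside 8.43% of genes, and both 5-HT libraries were higher at 3 (Otx1, Pax5 and Fgf17), beside 7.07%. The order at Fgf17 thus differed between all peaks and an equal peak number, and the cause was not tested. At their own TSSs, 2 of 8 genes (Otx1 and Pax5) had a promoter row open in all 5 libraries, against 48.4% of protein-coding genes, and 3 (Gbx2, Fgf8 and Fgf17) had no promoter row, against 34.8%. Without 5-HT 2, 4 genes had a promoter row open in every library left. The share of all genes was not counted at this setting, so this count cannot be set against the series. Read at equal peak numbers, 1 gene (Pax5) had a promoter row open in all 5 libraries, against 38% of genes, and 0 had a 5-HT-only one, against 2.29%.

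Otx2, the factor of the midbrain side, lies on the minus strand at chr14:49277354-49287319 and had 15 rows. With all peaks 8, 15 and 10 of them were open in DA 1, DA 2 and DA 3 and 3 and 2 in 5-HT 1 and 5-HT 2. The means were 11.0 ± 3.61 (SD, n = 3) in DA and 2.50 (n = 2) in 5-HT, and the groups did not overlap (exact permutation p = 0.1, two-sided). At an equal peak number 1 row was left in each DA library and 1 and 2 in the 5-HT libraries. Rows lay over 6 of 7 annotated TSSs of Otx2. The row over the 3 outermost TSSs, chr14:49287098-49288091, scored 5.24, 5.62 and 7.54 in the DA libraries, 4.53 in 5-HT 1 and had no peak in 5-HT 2. Its percentiles of 52.0, 66.4 and 85.5 in DA lay above those of 51.3 and 0 in 5-HT (DA minus 5-HT 42.3 percentile points, exact permutation p = 0.1), but DA 1 and 5-HT 1 were less than 1 point apart. The difference was 16.7 without 5-HT 2 and 68.0 without 5-HT 1. Downstream of it, chr14:49284492-49286676 covered 2 internal TSSs and was DA-only with scores of 3.63, 3.53 and 3.68. The remaining promoter row, chr14:49281472-49282205, was open in DA 2 (3.40) and DA 3 (3.27) only.

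Around the Otx2 promoter 3 further rows were DA-only. The row chr14:49288537-49290089, 1.22 kb upstream of the nearest TSS, scored 3.68, 3.76 and 3.84. Another, chr14:49293116-49294976 at 5.80 kb upstream, scored 3.64, 3.69 and 3.71, and chr14:49274605-49275426, past the 3′ end of the gene, scored 3.55, 3.87 and 4.00. In the same order their percentiles were 12.8, 11.2 and 8.05 in DA 1, 33.3, 31.1 and 36.7 in DA 2 and 45.7, 42.0 and 49.6 in DA 3, so that they were low in DA 1 and near the middle of DA 3. The distal row open in all 5 libraries was chr14:49329137-49329846, 41.8 kb upstream, with scores of 4.34, 4.27 and 3.80 in DA and 4.09 and 3.33 in 5-HT. Its percentiles overlapped between the groups (33.5, 46.5 and 44.7 against 38.0 and 33.1).

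Otx1 (chr11:21894767-21902900, minus strand) showed another pattern. With all peaks 3, 10 and 7 of its 12 rows were open in the DA libraries and 7 and 3 in the 5-HT libraries, and the groups overlapped (exact permutation p = 0.8). At an equal peak number 1, 0 and 0 rows were left in DA against 2 and 3 in 5-HT (exact permutation p = 0.1). One broad row, chr11:21900249-21903898, covered its 4 TSSs, with scores of 5.96, 5.96 and 4.53 in DA and 4.51 and 3.23 in 5-HT. By percentile the DA libraries were higher (62.6, 69.6 and 60.0 against 50.8 and 27.2, a difference of 25.1 points, exact permutation p = 0.1), and the difference was 13.3 without 5-HT 2. By rank from the highest score the order was the opposite: the row ranked 19793, 28253 and 37763 in DA and 19084 and 16666 in 5-HT. The direction at the Otx1 promoter thus depended on whether the number of peaks of a library was divided out. Within the gene body, chr11:21895561-21897568 over an exon was open in the 3 DA libraries (4.00, 4.03 and 3.70) and in 5-HT 1 (4.09). A row centred within the neighbouring gene Ehbp1, chr11:21917448-21917789, had a peak in DA 3 (4.06), 5-HT 1 (4.29) and 5-HT 2 (2.84). It was 5-HT-only at an equal peak number, where 5-HT 2 keeps all its peaks. By percentile DA 3 (51.1) lay above 5-HT 1 (44.6) and 5-HT 2 (0.865).

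Gbx2, the factor of the hindbrain side, lies at chr1:91824537-91829865 on the minus strand and had 10 rows. Of these 5, 9 and 7 were open in DA and 3 and 0 in 5-HT; the means were 7 ± 2 (SD, n = 3) and 1.5 (n = 2), and the groups did not overlap (exact permutation p = 0.1). No row reached the single TSS of Gbx2, the nearest lying 1.75 kb away. That row, chr1:91826610-91828119, was centred on an exon of Gbx2, also covered the promoter of the overlapping gene D130058E05Rik and was DA-only (4.80, 4.50 and 3.67). The strongest row of the window was narrow and lay 10.0 kb upstream, at chr1:91839893-91840069 between genes. It scored 8.13, 11.0 and 7.16 in the DA libraries, at percentiles 82.2, 92.5 and 83.6, and no peak was called there in either 5-HT library. Of the 104 rows it was the only one that stayed DA-only at an equal peak number. With 10000 peaks per library it was no longer DA-only, since it ranked 9413 and 6997 in DA 1 and DA 2 and 15490 in DA 3. One of 3 rows open in all DA libraries and 5-HT 1, chr1:91864331-91865425 in a neighbouring gene (Asb18), scored 4.23, 4.61 and 3.77 in DA and 3.86 in 5-HT 1.

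**Figure D2:**
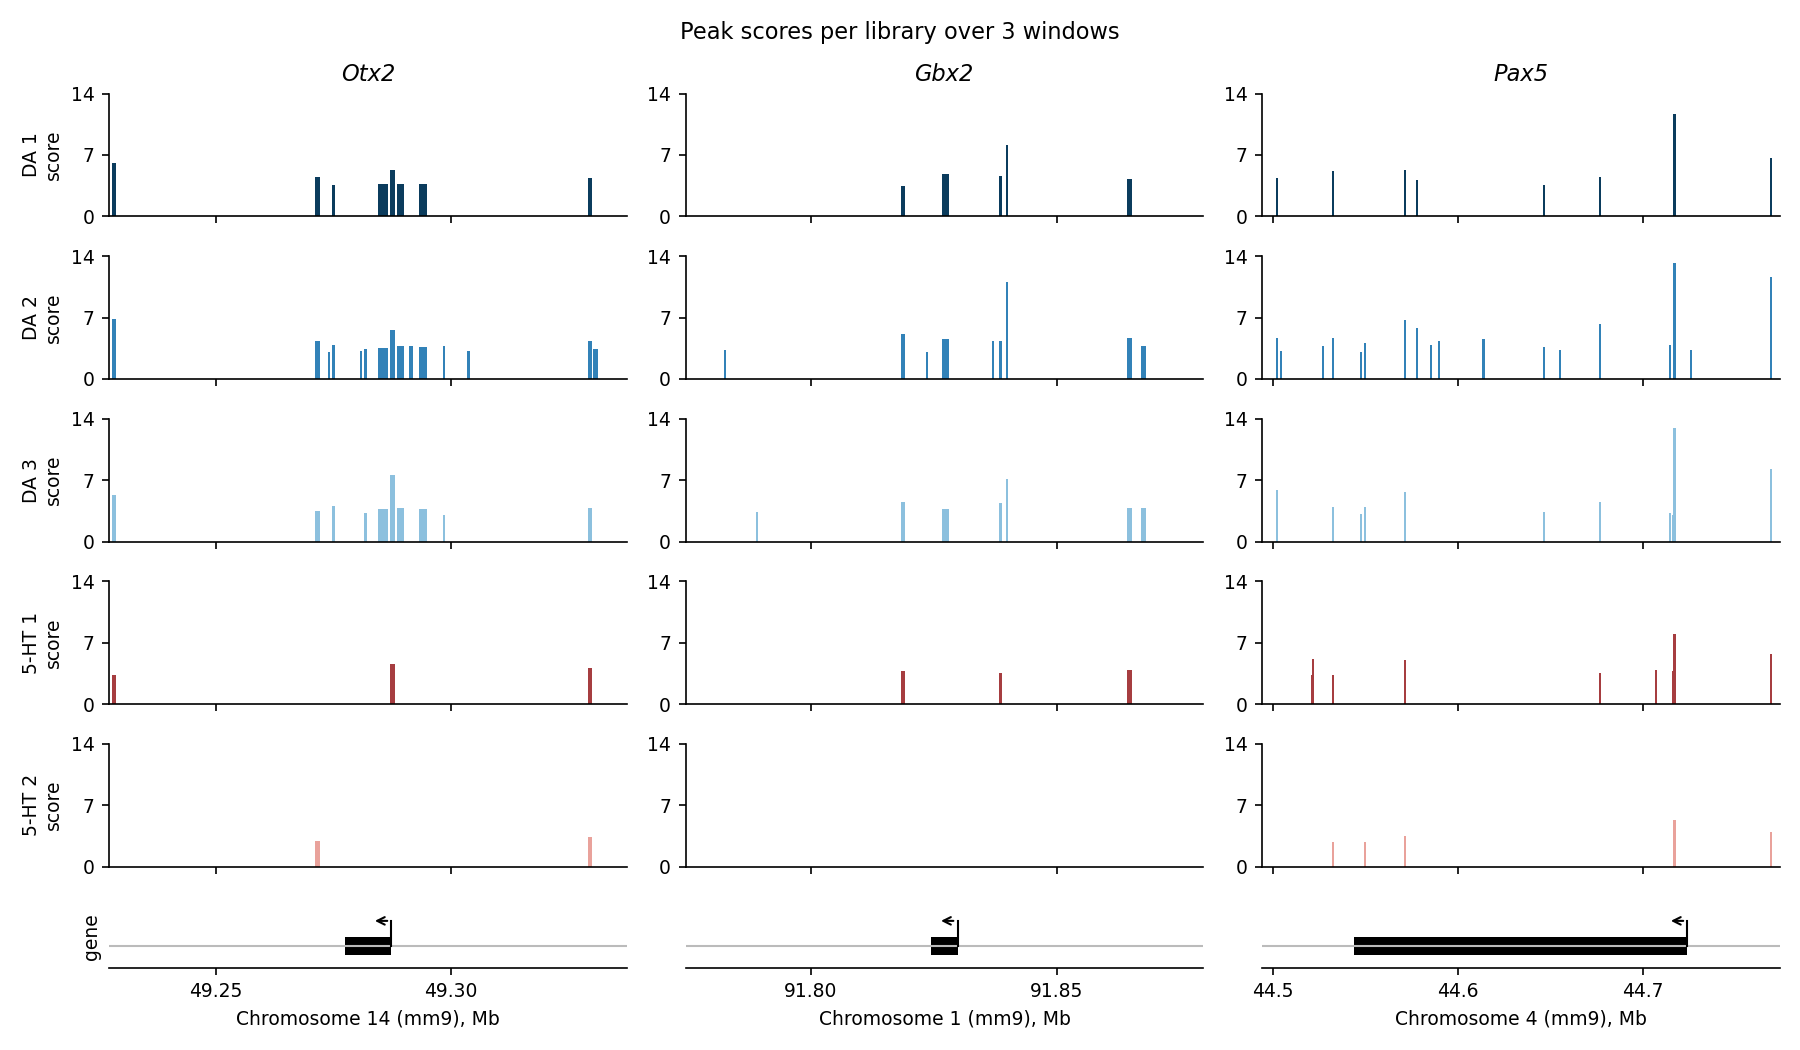
Deposited peak score (y axis) of every row in each library over the windows of Otx2, Gbx2 and Pax5 (x axis, mm9 position in Mb), with the gene body in black and an arrow at its outermost TSS. Gbx2 has a peak 10.0 kb upstream in every DA library and none in 5-HT 1 or 5-HT 2, and Pax5 has its highest score near its 5′ end in all 5 libraries; narrow rows are drawn wider than they are so that they can be seen.

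Among the Pax genes, Pax5 had the strongest promoter. Pax5 (chr4:44544017-44724318, minus strand) had 23 rows, of which 8, 18 and 11 were open in DA and 9 and 5 in 5-HT. The groups overlapped with all peaks (exact permutation p = 0.4). At an equal peak number 2 rows were left in each DA library and 4 and 5 in the 5-HT libraries. The row chr4:44716756-44718327 lay over an internal TSS at position 44716878 and scored 11.7, 13.2 and 13.0 in DA and 8.04 and 5.35 in 5-HT. It was the highest-scoring own promoter of the 8 genes in every library. Its percentiles were 94.7, 95.8 and 97.2 in DA and 92.6 and 84.2 in 5-HT, a difference of 7.48 points (exact permutation p = 0.1) that was 3.28 without 5-HT 2 and 11.7 without 5-HT 1. By rank, 2811, 3937 and 2628 in DA against 2866 and 3612 in 5-HT, the groups overlapped. No row covered the outermost TSS at 44724318, the nearest lying 1.47 kb away. A pair of narrow promoter rows nearby had a peak in 1 library each, chr4:44716234-44716472 over the TSS at 44716285 in DA 3 (3.03) and chr4:44716620-44716737 in 5-HT 1 (3.76). The latter lies less than 100 bp from the row chr4:44716756-44718327, also open in 5-HT 1, and joins it when rows are merged. In an intron, chr4:44570743-44571688 was common, with scores of 5.23, 6.68 and 5.66 in DA and 5.00 and 3.48 in 5-HT. It was 5-HT-only at an equal peak number. The stronger of its 2 DA-only rows, chr4:44501641-44502138 beyond the 3′ end, scored 4.37, 4.68 and 5.87.

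Pax2 (chr19:44830539-44912758, plus strand) had few called peaks in the 5-HT libraries. Of its 12 rows 4, 11 and 4 were open in DA and 1 and 0 in 5-HT, and at an equal peak number no row was left in any library. Although the groups did not overlap, the exact permutation p was 0.3, and the DA mean of 6.33 ± 4.04 (SD, n = 3) rested largely on DA 2. The promoter row, chr19:44830104-44830269, lay 270 bp upstream of the first TSS and had a peak in DA 2 alone (5.26, percentile 62.4). An intronic row, chr19:44899378-44900187, was DA-only with scores of 5.03, 6.51 and 3.76. The single row with a 5-HT peak, chr19:44800463-44801325 at 29.2 kb upstream, scored 4.23, 3.63 and 3.72 in DA and 4.10 in 5-HT 1.

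Pax8 (chr2:24276071-24331119, minus strand) had 15 rows, 7, 12 and 12 open in DA and 7 and 4 in 5-HT. The groups overlapped (exact permutation p = 0.3), and at an equal peak number 3, 3 and 4 rows stood against 3 and 4. A broad promoter row, chr2:24329282-24331611, covered 5 of its 7 TSSs with scores of 4.04, 3.65 and 3.67 in DA, 3.51 in 5-HT 1 and no peak in 5-HT 2. Percentiles of 25.1, 29.6, 40.7, 14.4 and 0 placed this promoter in the lower part of every library. Both groups shared chr2:24376600-24377896, 45.5 kb upstream, with scores of 6.93, 5.63 and 7.29 in DA and 3.92 and 3.19 in 5-HT. The other common distal row, chr2:24264678-24265145 at 13.5 kb from the nearest TSS, scored 11.3, 10.5 and 9.16 in DA and 4.22 and 3.19 in 5-HT, at percentiles 94.0, 91.3 and 91.4 against 42.3 and 24.8, and stayed common at an equal peak number. One of its 2 DA-only rows was chr2:24272243-24273066 past the 3′ end (4.01, 4.76 and 4.10). A different order was seen at chr2:24358637-24359246, 27.5 kb upstream, where DA 2 scored 3.21, 5-HT 1 4.51 and 5-HT 2 4.09 and no peak was called in DA 1 or DA 3. With percentiles of 0, 10.3 and 0 in DA and 50.9 and 63.3 in 5-HT, it was the 1 row of 104 at which both 5-HT libraries lay above all DA libraries, beside 0.866% of all rows in the series, whereas at 29 rows the DA libraries lay above both 5-HT libraries, beside 25% of all rows.

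**Figure D3:**
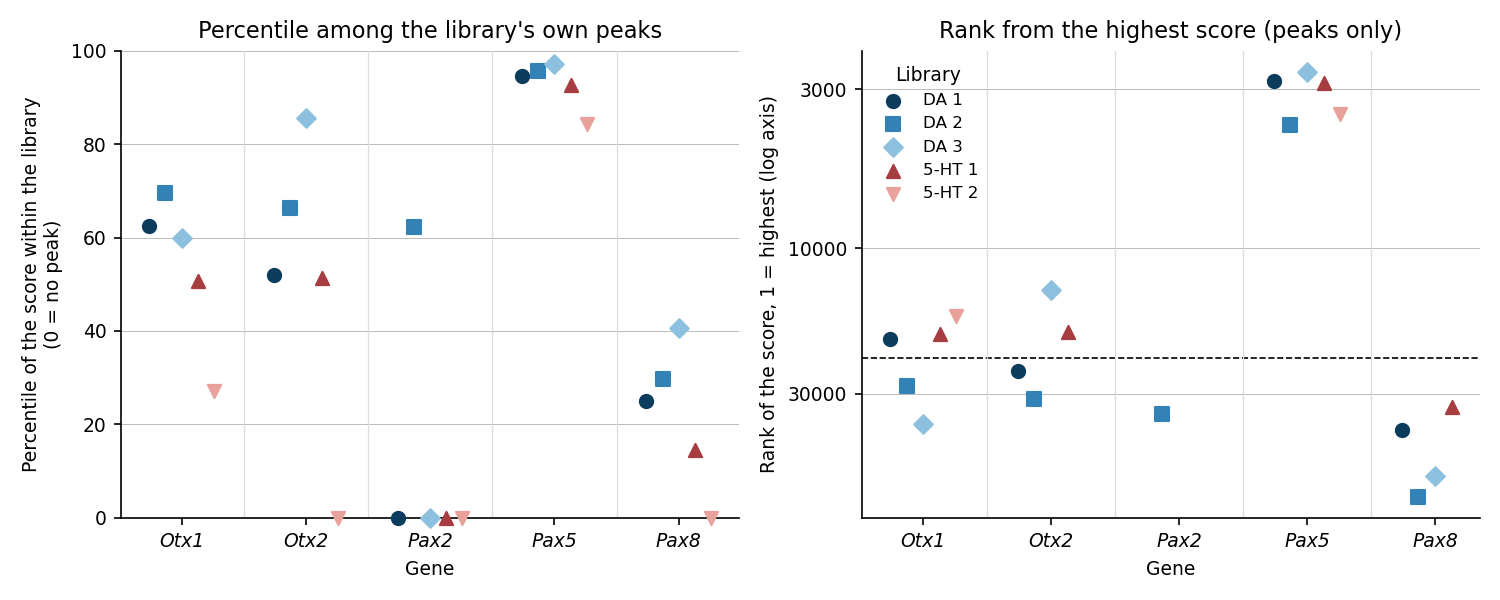
Own promoter rows of the 5 boundary genes that had one, 1 marker per library: percentile of the score within the library (left, y axis 0 to 100, 0 for no peak) and rank of the score from the highest (right, log axis, peaks only; the dashed line marks rank 22879). The DA libraries lie above both 5-HT libraries by percentile at Otx1, Otx2, Pax5 and Pax8, and by rank the 5-HT libraries lie nearer the top than every DA library at Otx1.

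By percentile the DA libraries lay above both 5-HT libraries at 4 of the 5 own promoters with a row (Otx1, Otx2, Pax5 and Pax8), beside the 53.2% of all promoters given above. By rank 0 of 5 were nearer the top in all DA libraries, beside 11.3% of promoters, and 1 (Otx1) in both 5-HT libraries, beside 14.5%. At Pax8 every rank lay past this limit.

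The ligands Fgf8 and Fgf17 had no row at their own TSSs. Fgf8 (chr19:45811288-45817405, minus strand) had 5 rows, the fewest of the 8 genes. With all peaks 3, 5 and 3 were open in DA and 3 and 2 in 5-HT (exact permutation p = 0.6), and at an equal peak number 2, 3 and 1 against 2 and 2. The row nearest to a TSS, 3.58 kb away, had a peak in DA 2 alone. Downstream of the gene, chr19:45791991-45792690 was common, scoring 6.04, 6.95 and 5.04 in DA and 3.96 and 3.65 in 5-HT. Its percentiles were higher in DA (63.5, 77.1 and 66.9 against 33.3 and 48.3), but by rank (19305, 21331 and 31254 against 25856 and 11834) the groups overlapped. The strongest row of the window belonged to another gene: the promoter of Mgea5, chr19:45857037-45858647, was at percentiles 94.9, 98.1 and 96.8 in DA and 94.5 and 96.3 in 5-HT.

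Fgf17 (chr14:71036012-71042075, minus strand) lies among 4 other protein-coding genes, and its 12 rows include promoters of Fam160b2 and Epb4.9. Of these rows 7, 12 and 8 were open in DA and 6 and 5 in 5-HT (exact permutation p = 0.2), whereas at an equal peak number 3 were left in each DA library and 5 in each 5-HT library (exact permutation p = 0.1). A distal row in Xpo7, chr14:71058591-71059661, was open in all libraries at 8.44, 12.2 and 9.89 in DA and 7.62 and 4.36 in 5-HT, also at an equal peak number. The row nearest to the TSS, chr14:71045426-71045616 at 3.35 kb upstream, scored 6.66, 11.2 and 5.55 in DA and 5.46 in 5-HT 1 and had no peak in 5-HT 2. At 4.73 kb upstream, chr14:71046805-71047298 had no peak in DA 1 and scored 6.19 and 7.55 in DA 2 and DA 3 and 7.68 and 3.08 in 5-HT 1 and 5-HT 2. This row, chosen after its values were seen, differed between libraries of the same group: its percentiles ran from 0 to 85.6 in DA and from 17.1 to 90.9 in 5-HT. The DA-only row chr14:71025592-71026192 was weak in DA 1 (3.48) and DA 3 (3.18) and scored 4.77 in DA 2.

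Promoters with the most similar pattern were sought over the 5 percentiles among 14494 other protein-coding promoters. The nearest to Otx2 was Kcnh7 (Euclidean distance 7.03 percentile points), to Otx1 Elovl1 (8.58), to Pax5 Atxn7l3b (1.40), to Pax8 Ankrd58 (5.94) and to Pax2 Def6 (0.928). Atxn7l3b stood at 94.1, 95.5 and 98.2 in DA and 93.4 and 84.3 in 5-HT, the same high placing as Pax5, and Def6 at 63.3 in DA 2 and 0 elsewhere. The other 3 lay farther from their gene. Such likeness is a description of 5 libraries.

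The sequence of the rows was read from the mm9 genome, plus strand. Counted were TAATCC, a word bound by Otx and other bicoid-class homeodomains, TAATTA, bound by Gbx and other Antennapedia-type homeodomains, and GCGTGAC, part of the word bound by the Pax2, Pax5 and Pax8 paired domain. Both strands of the central 200 bp around the middle of each row were searched. TAATCC was present in this stretch at 6 of 84 distal rows of the boundary genes (7.14%), beside 7.72% of all distal rows and 7.11% of all rows. The stretch runs past rows shorter than itself, and when only its part inside the row was read, a reading added after the data were seen, the count was 5 (5.95%), beside 7.15% of all distal rows and 6.61% of all rows. TAATTA was present in 4 (4.76%), beside 7.11% of distal rows and 6.37% of all rows, and GCGTGAC in 0, beside 0.536% and 0.712%. None of the 20 promoter rows held a word, beside 3.23%, 1.67% and 1.84% of all promoter rows. TAATCC occurred in 2 of the 10 DA-only distal rows, beside 10.5% of 16631 such rows in the series. These counts are too small to set the boundary genes apart from the series.

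The 2 DA-only rows with TAATCC are given in full or in part, since one of them is the row that stayed DA-only at an equal peak number. The word is in capitals, and a match does not show that a factor binds there. The Gbx2 row is whole (chr1:91839893-91840069) and the row in an intron of Pax5, chosen after its sequence was seen, is given by its centre (chr4:44646665-44646864); this row scored 3.58, 3.64 and 3.37 in DA and 0 in 5-HT.
Gbx2 upstream: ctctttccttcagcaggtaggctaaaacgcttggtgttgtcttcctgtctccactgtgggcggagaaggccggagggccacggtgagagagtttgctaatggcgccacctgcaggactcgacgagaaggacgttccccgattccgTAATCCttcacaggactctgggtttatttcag
Pax5 intron: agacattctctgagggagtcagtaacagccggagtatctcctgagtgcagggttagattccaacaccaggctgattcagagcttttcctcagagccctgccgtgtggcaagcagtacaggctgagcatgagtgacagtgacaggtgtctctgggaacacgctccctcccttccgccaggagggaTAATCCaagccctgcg

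For comparison, the strongest own promoter (Pax5, chr4:44717442-44717641), the Otx2 promoter (chr14:49287495-49287694) and the Pax2 promoter row open in DA 2 alone (chr19:44830104-44830269) held none of the 3 words in the stretch shown. G and C made up 61.0%, 41.0% and 71.1% of their bases. The Otx2 promoter row was thus AT-rich at its centre, beside a median of 63.0% G and C over all promoter rows.
Pax5 promoter: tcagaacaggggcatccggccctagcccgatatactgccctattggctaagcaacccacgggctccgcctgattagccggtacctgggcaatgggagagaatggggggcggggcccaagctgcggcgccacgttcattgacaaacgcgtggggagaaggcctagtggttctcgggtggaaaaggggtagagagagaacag
Otx2 promoter: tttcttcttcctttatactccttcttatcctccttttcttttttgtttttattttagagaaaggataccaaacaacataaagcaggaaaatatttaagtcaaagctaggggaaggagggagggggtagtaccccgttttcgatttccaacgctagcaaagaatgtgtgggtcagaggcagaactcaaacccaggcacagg
Pax2 promoter: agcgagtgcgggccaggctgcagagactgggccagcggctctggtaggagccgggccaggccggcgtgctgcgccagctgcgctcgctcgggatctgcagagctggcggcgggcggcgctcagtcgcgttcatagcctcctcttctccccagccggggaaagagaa

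Other genes of the pathway were read in the same way. In the list of 15 genes of isthmic FGF signalling (Fgf15, Fgf18, Fgfr1, Fgfr2, Fgfr3, Spry1, Spry2, Spry4, Dusp6, Il17rd, Etv1, Etv4, Etv5, Flrt3 and Cnpy1), all had a promoter row, 14 of them open in all 5 libraries, against 48.4% of protein-coding genes, and the exception was Cnpy1 with no peak in 5-HT 2. With peak numbers made equal, 8 of the 15 were open in all 5 libraries, against 38% of genes, and 2 (Fgfr2 and Il17rd) were 5-HT-only, against 2.29%. By percentile the DA libraries were higher at 7 of the 15, beside 53.2%, and both 5-HT libraries at 0, beside 0.552%. By rank 1 (Etv4) was nearer the top in every DA library, beside 11.3%, and 4 (Fgf18, Fgfr2, Il17rd and Etv1) in both 5-HT libraries, beside 14.5%. The series leaned the same ways by percentile and by rank, so these counts by percentile and rank do not set the list apart. Etv4, a transcription factor induced by FGF signals, stood at 93.5, 94.2 and 90.9 in DA and 77.1 and 45.7 in 5-HT, and Spry1, an inhibitor of the pathway, at 78.3, 91.3 and 89.2 against 77.5 and 41.1. The receptor gene Fgfr1 stood at 82.5, 90.9 and 93.4 against 81.3 and 74.9. Etv5, related to Etv4, was high in both groups, at 92.6, 98.9 and 99.0 against 95.2 and 97.3. In the windows of these genes 14.7% of 258 distal rows were DA-only, beside 14.6% in the series, and 1.94% at an equal peak number, beside 2.33%. The window of Fgfr2 alone held 104 of these distal rows, 13 of them DA-only with all peaks.

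Of 10 further transcription factors and ligands of the boundary (En1, En2, Wnt1, Lmx1b, Sp8, Irx2, Hes3, Tle4, Meis2 and Gbx1), 5 had a promoter row open in all 5 libraries, against 48.4% of protein-coding genes, and Wnt1, a ligand of the midbrain side, had no promoter row. With the same number of peaks per library 3 were open in all 5 libraries, against 38%, and 2 (Irx2 and Meis2) were 5-HT-only, against 2.29%. Among the 9 genes with a promoter row, the DA libraries were higher by percentile at 3 (En1, En2 and Lmx1b), beside 53.2% of promoters. Both 5-HT libraries were higher at 1 (Irx2), beside 0.552%. By rank 0 were nearer the top in every DA library, beside 11.3%, and 2 (Irx2 and Meis2) in both 5-HT libraries, beside 14.5%. En2, an engrailed factor of both sides of the boundary, stood at 88.2, 90.5 and 84.8 in DA and 62.8 and 63.5 in 5-HT. Irx2, a homeodomain factor, stood at 28.7, 54.2 and 55.6 in DA and 67.7 and 72.8 in 5-HT (exact permutation p = 0.1). Gbx1, the paralog of Gbx2, had a promoter peak in DA 2 alone (3.16). Distal rows in these windows were DA-only in 16.9% of 160 cases, beside 14.6% in the series, and in 4.38% at an equal peak number, beside 2.33%. The window of En2 overlaps that of Cnpy1, so this list and the FGF list can share rows.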

How the data were processed

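ATAC-seq libraries of 3 DA and 2 5-HT samples were analysed; the RNA-seq samples of the series were not used here. Per the study's methods and the labels, the authors used Trimmomatic and FastQC for read quality, dropped reads under 100 bp, mapped pairs with Bowtie2 (mm9), discarded duplicate reads with the Picard tools and ran MACS2 callpeak, after which BEDOPS joined peaks closer than 100 bp; versions and the peak threshold are not given in the sources used here. Regions were annotated by the authors with HOMER, and that annotation was not used here. The deposited score per region and library has no named scale, and 0 marks no peak. The same regions stood in every table, and some of them lay less than 100 bp apart. Peak coordinates were read with TSSs of GENCODE vM1 on NCBIM37 (mm9). The number of peaks per library, 22879 to 94351, limits what could be seen in the 5-HT samples.

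Rows were assigned by an overlap of at least 1 bp. Percentiles, ranks, presence classes and exact two-sided permutation tests were computed in Python 3.11.15 with NumPy 2.4.6 and pandas 2.3.3, figures were drawn with matplotlib 3.10.9, and the functions were tested on simulated data. Named were the 8 genes with every own promoter row, and for each gene the distal row in most libraries, the DA-only distal row with the highest lowest score, 5-HT-only rows and up to 2 rows with higher percentiles in both 5-HT libraries; the 2 rows described at Fgf17 upstream of its TSS, that at Otx1 in Ehbp1, 2 further DA-only rows at Otx2, 1 further common row at Pax8, the Mgea5 and D130058E05Rik promoters and the Pax5 intron row were added after their values were seen. Alternatives covered the number of peaks, merged rows, windows of 20 and 100 kb, the promoter definition, the overlap rule, a stricter score and leaving out each library. Certain marker genes and a sequence are not reported here. The members and lists were chosen with earlier results of these data known.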

Additional observations from a re-analysis of the deposited data

How the results depend on the processing

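The direction of the DA minus 5-HT difference in rows with a peak per window was kept in 89 comparisons with an alternative, turned in 8 and was 0 in 7 (Otx1 with 10000 peaks and without DA 2, Otx2 with 10000 peaks, and Pax2 and Fgf8 at both lower peak numbers). At an equal peak number it was -2.17 at Otx1, -0.5 at Otx2, -2.5 at Pax5, -0.167 at Pax8 and -2 at Fgf17; with 10000 peaks per library it was -0.667 at Pax5 and -0.167 at Fgf17. Leaving out each library in turn, it ran from -0.333 to 3.67 at Otx1, the negative value being without 5-HT 2. The same range was 3.5 to 7 at Pax2, 2.5 to 7.5 at Pax5, 0.5 to 1.67 at Fgf8 and 2 to 4.5 at Fgf17. In windows of 100 kb the difference was 4.17 at Otx1, 16.3 at Otx2, 9 at Pax2 and 5.17 at Fgf8. In windows of 20 kb it was 3.33 at Pax2 and 2.17 at Fgf17. The promoter differences by percentile kept their direction in 46 comparisons and turned in 1, Otx1 by rank from the highest score (-3976), an alternative chosen after seeing the data; by rank the difference was 0 at Pax2 and Pax8. Without DA 2, Pax2 had no promoter region to compare. The cause was not tested.

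The 10 DA-only distal regions became 1 at an equal peak number and 17 in windows of 100 kb, and 10 to 19 on leaving out each library. With 10000 peaks there was 1, at Pax8 (chr2:24264678-24265145), which is common with all peaks, so that 0 of the 10 remained; the Gbx2 region upstream of the gene was lost in DA 3. With a score of at least 3.69 there were 8, of which 5 were among the 10, and the 3 at Otx2 were lost. The 0 5-HT-only distal regions became 3 at an equal peak number and 1 with a score of at least 3.69, and 0 to 3 on leaving out a library. The 8 common distal regions became 3, 1 (10000 peaks) and 1 (stricter score), and 8 to 17 on leaving out a library. The 2 genes with a promoter open in all 5 libraries became 1 at each of these 3 settings, and 2 to 4 on leaving out a library. Shares over the series were not counted with 10000 peaks, at the stricter score or on leaving out a library. The cause was not tested.

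Pairing DA and 5-HT libraries by their number as a replicate block gave window differences of 1.5 at Otx1, 9 at Otx2, 5.5 at Gbx2, 7 at Pax2, 6 at Pax5, 4 at Pax8, 1.5 at Fgf8 and 4 at Fgf17. Paired libraries share only a number, and their deviations were correlated at r = -0.0125 and -0.0146 over all regions. Read depth is not known, and the 22879 peaks of 5-HT 2 limit what absence in 5-HT can show.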
